A study of Homo sapiens with 6 samples.

Results

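NDRG1, VEGFA, CA9, ADM, BNIP3, PDK1, SLC2A1, EGLN3, LDHA and HK2 are genes of the hypoxia response and of glucose use, and they were examined here in endometrial cancer cells treated with SMIP34. They were taken by gene symbol, 10 of the 23228 genes counted, and the group was chosen with the measured difference between treated and control cells known. For that reason their own levels and calls are given as a description, with no p-value. RNA-seq had been performed on HEC-1-A cells, an established human endometrial adenocarcinoma line, grown in McCoy's 5A medium with fetal bovine serum. The Control group was 3 libraries of cells without the inhibitor (vehicle, per the study's methods), and the SMIP34 group was 3 libraries of cells given SMIP34 at 20 µM for 24 h. SMIP34 is a small molecule that binds PELP1, a scaffold protein of the Rix1 complex, and lowers its protein level. The comparison asks which transcripts differ after PELP1 inhibition in a single cell line at a single dose and time. The labels do not say whether the libraries came from separate cultures, so the spread between them may be technical.

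In cells with enough oxygen, prolyl hydroxylases (EGLN proteins) modify the α subunits of the hypoxia-inducible factors (HIFs), and the VHL ubiquitin ligase then marks them for degradation. When oxygen falls, the α subunits persist, pair with ARNT and switch on genes for glucose uptake, glycolysis, blood vessel growth and acid-base control. Many of these genes also answer to other signals, such as stress kinases, nutrients and iron. The labels name only the medium and SMIP34, and oxygen is not among the conditions compared.

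The libraries held 19562711 to 22014835 counts, and 13408 genes had enough of them to be tested. Levels are given as CPM (counts divided by the TMM-scaled total of the library, on a per-million basis) and as RPKM, which are CPM per kilobase of exon. Libraries of the same group were not copies of each other (chi-square per gene of 1.89 to 3.28, and 8.82 to 13.3 for pairs from different groups). All 10 epithelial markers checked were present, with a summed level of 5749 to 5946 CPM in Control and 5647 to 5764 CPM in SMIP34, where 1 rose (CLDN4) and 4 fell (MUC1, KRT19, KRT8 and PAX8) at an adjusted p under 0.05 (edgeR), beside 17.4% and 17.2% of all genes tested. The 8 stromal markers summed to 5.2 to 6.59 CPM in Control and 6.38 to 6.70 CPM in SMIP34, with LUM and PDGFRA at 0. The 8 immune and endothelial markers summed to 1.20 to 2.27 CPM in Control and 1.34 to 2.37 CPM in SMIP34, with CD3E at 0. In RNA from a whole culture, fewer cells of a kind and less RNA per cell cannot be told apart.

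The windows just upstream of the transcription start are shown for examples of genes with and without the HIF core motif. HIF is described as a regulator of the hypoxia response, but the 10 genes did not move alike. The sequences are RefSeq's, on GRCh38.p14, 250 bases before the start, and 8 of the 10 genes had an entry. NDRG1 and VEGFA had none. Capitals mark ACGTG, the commoner core of the HIF response element, and GCGTG, its variant, searched on both strands, so that CACGT is ACGTG and CACGC is GCGTG read from the other strand. The ADM window (chr11:10304823-10305072, plus strand) held a single GCGTG. The SLC2A1 window (chr1:42958869-42959118, minus strand) held neither motif. HK2 and LDHA have 2 entries each. The downstream HK2 entry (chr2:74834920-74835169, plus strand) held ACGTG 4 times and GCGTG 2 times, and the upstream LDHA entry (chr11:18394313-18394562, plus strand) held ACGTG 5 times, where each palindromic CACGTG is counted on both strands. The entries not shown held fewer, with ACGTG 2 times and GCGTG 1 time for HK2, and no ACGTG and a single GCGTG for LDHA.
ADM: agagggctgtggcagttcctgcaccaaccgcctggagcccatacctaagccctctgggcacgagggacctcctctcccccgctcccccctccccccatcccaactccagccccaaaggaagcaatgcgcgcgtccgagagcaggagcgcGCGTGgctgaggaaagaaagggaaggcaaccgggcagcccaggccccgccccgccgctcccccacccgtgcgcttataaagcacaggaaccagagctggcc
SLC2A1: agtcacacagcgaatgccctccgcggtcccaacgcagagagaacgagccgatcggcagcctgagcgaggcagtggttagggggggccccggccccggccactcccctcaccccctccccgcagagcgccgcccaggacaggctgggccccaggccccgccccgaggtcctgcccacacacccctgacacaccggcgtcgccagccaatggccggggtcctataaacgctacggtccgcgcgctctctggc
HK2: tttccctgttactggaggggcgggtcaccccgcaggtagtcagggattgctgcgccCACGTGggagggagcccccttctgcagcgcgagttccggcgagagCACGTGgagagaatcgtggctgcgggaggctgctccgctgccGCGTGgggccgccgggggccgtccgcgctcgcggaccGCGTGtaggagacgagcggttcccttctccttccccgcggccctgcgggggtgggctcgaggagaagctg
LDHA: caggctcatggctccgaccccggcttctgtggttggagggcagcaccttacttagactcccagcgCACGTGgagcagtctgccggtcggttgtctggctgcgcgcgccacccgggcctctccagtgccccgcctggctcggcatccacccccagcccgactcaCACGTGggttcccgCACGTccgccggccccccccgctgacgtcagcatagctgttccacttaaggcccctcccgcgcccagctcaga
Of the 11 windows of these 8 genes, 6 held ACGTG, 5 held GCGTG and 8 held either. Since 3 of the genes have 2 windows, the count per gene was 5 with ACGTG, 4 with GCGTG and 6 with either. Among genes not shown, the BNIP3 window held ACGTG 2 times (1 CACGTG, counted on both strands) and GCGTG 4 times. That of EGLN3 held neither. Of 35116 promoter windows of this length in the reference, 18.5% held ACGTG, 32.2% held GCGTG and 43.2% held either. A match is only a description of these letters, and the window leaves out elements farther away.

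In control cells the 10 genes spanned a wide range of levels. LDHA was highest per length at 560 RPKM on average, followed by BNIP3 at 133, NDRG1 at 66.4, SLC2A1 at 43.1, VEGFA at 29.3 and HK2 at 8.39 RPKM. ADM followed at 3.69, PDK1 at 2.86, EGLN3 at 2.69 and CA9 at 0.021 RPKM. The ranges of neighbours in this order did not overlap in the Control libraries. The closest were PDK1, with a lowest value of 2.81 RPKM, and EGLN3, with a highest value of 2.78 RPKM. In SMIP34-treated cells EGLN3, at 3.25 RPKM on average, had a higher mean than PDK1, at 2.94 RPKM, but their ranges overlapped (2.95 to 3.43 and 2.86 to 2.98 RPKM).

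NDRG1, a cytoplasmic stress-response protein that has been linked to differentiation and to suppression of metastasis, lies on chr8:134249414-134309547 (hg19, minus strand) in 16 annotated exons. Its level was 228, 226 and 239 CPM in Control and 362, 358 and 360 CPM in SMIP34. The groups were far apart, and the treated libraries were nearly level with each other. The means were 231 ± 6.72 and 360 ± 2.05 CPM (SD, n = 3), a log2 fold change of 0.64 ± 0.028 (SE), or 55.8% more transcript. Of the 13408 genes tested, 1.19% had a larger log2 fold change. Other genes of the NDRG family had lower means after treatment, without passing the test. NDRG3 had a mean of 63.1 CPM in Control and 58.8 CPM in SMIP34 (log2 fold change -0.10, adjusted p = 0.0642, edgeR's quasi-likelihood test with Benjamini-Hochberg adjustment). NDRG2 had 13.3 and 12.04 CPM (adjusted p = 0.2).

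ADM encodes adrenomedullin, a secreted vasodilator peptide whose mRNA is a widely used marker of hypoxia. The gene lies on chr11:10326642-10328923 (hg19, plus strand). Its level was 4.58, 5.84 and 5.63 CPM in Control and 9.30, 11.5 and 11.7 CPM in SMIP34. Every treated library exceeded every control library, and replicate 1 was the lowest of its group on each side. The means of 5.35 ± 0.672 and 10.8 ± 1.32 CPM (SD, n = 3) gave a log2 fold change of 1.01 ± 0.12, the largest among the 10 genes. ADM2, a related peptide of the same receptor family, went the other way. It fell from 20.3 to 11.8 CPM on average, a log2 fold change of -0.79 ± 0.075 (adjusted p = 7.39e-09, edgeR's quasi-likelihood test). CALCRL, the receptor through which adrenomedullin signals, was low and fell from 2.6 to 1.70 CPM (log2 fold change -0.61, adjusted p = 0.022, edgeR). That call was lost without Control replicate 3, without SMIP34 replicate 3 and with DESeq2. RAMP2 and RAMP3, which the receptor needs to recognise adrenomedullin, had no count in any library.

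EGLN3 is a prolyl hydroxylase that HIF itself induces and that feeds back on it, at chr14:34393421-34420284 (hg19, minus strand). It was measured at 6.90, 7.50 and 7.55 CPM in Control and 8.02, 9.15 and 9.34 CPM in SMIP34. The groups did not overlap, although the lowest treated value was close to the highest control value. The log2 fold change was 0.27 ± 0.11.

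BNIP3, a mitochondrial protein that promotes mitophagy and cell death, lies on chr10:133781204-133795435 (hg19, minus strand). Its level was 208, 206 and 198 CPM in Control and 213, 219 and 213 CPM in SMIP34. The groups did not overlap, but the gap between them (208 to 213 CPM) was narrower than the spread within either group. The log2 fold change was 0.076 ± 0.030. BNIP3L, its close relative in mitophagy, rose from 142 to 154 CPM (log2 fold change 0.12 ± 0.031, adjusted p = 0.00367, edgeR).

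SLC2A1 encodes GLUT1, the transporter that brings glucose into most cells, at chr1:43391046-43424847 (hg19, minus strand). Its level was 154, 158 and 163 CPM in Control and 194, 189 and 186 CPM in SMIP34. All treated libraries were clearly above all controls. The means of 158 ± 4.70 and 190 ± 3.76 CPM (SD, n = 3) gave a log2 fold change of 0.26 ± 0.031. SLC2A3, the other glucose transporter commonly induced in hypoxia, had at most 0.361 CPM in any library and was not tested. SLC2A12 rose from 4.57 to 6.41 CPM (log2 fold change 0.49 ± 0.14, adjusted p = 0.00854, edgeR), a call lost without SMIP34 replicate 2.

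HK2 encodes hexokinase 2, the inducible enzyme that traps glucose in the cell by phosphorylating it, at chr2:75059782-75120481 (hg19, plus strand). Its level was 60.1, 56.2 and 62.2 CPM in Control and 74.96, 79.0 and 73.2 CPM in SMIP34. The groups were separated by more than the width of either. The log2 fold change was 0.35 ± 0.044. The constitutive hexokinase HK1 rose from 24.9 to 29.98 CPM (log2 fold change 0.265 ± 0.061, adjusted p = 0.00123, edgeR). HKDC1, a hexokinase-like gene expressed above both of them here, fell from 132 to 120 CPM (log2 fold change -0.14 ± 0.034, adjusted p = 0.00223, edgeR). Per length, control levels were 35.9 RPKM for HKDC1, 8.39 for HK2 and 5.82 for HK1.

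LDHA, the lactate dehydrogenase subunit that favours lactate production, lies on chr11:18415936-18429765 (hg19, plus strand). Its level was 1452, 1446 and 1390 CPM in Control and 1359, 1371 and 1412 CPM in SMIP34. The groups overlapped, with a log2 fold change of -0.050 ± 0.026. Its counts were not whole numbers in 4 libraries, since reads shared with other sequences had been divided, so that part of its level is uncertain. The same held for SLC2A1 in 3 libraries, VEGFA and BNIP3 in 2 each, and NDRG1 and HK2 in 1 each. LDHB, the partner subunit, fell from 937 to 879 CPM (log2 fold change -0.092 ± 0.027, adjusted p = 0.00925, edgeR), a call lost without SMIP34 replicate 1 or 2 and with gene length offsets.

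PDK1, a kinase that blocks pyruvate dehydrogenase and so keeps pyruvate from the mitochondrial citrate cycle, lies on chr2:173420779-173463862 (hg19, plus strand). It was measured at 13.5, 12.9 and 12.8 CPM in Control and 13.6, 13.6 and 13.1 CPM in SMIP34. The groups overlapped, and the log2 fold change was 0.039 ± 0.081. Its paralog PDK3 rose from 22.6 to 25.7 CPM (log2 fold change 0.18 ± 0.066, adjusted p = 0.0317), and PDK2 fell from 91.5 to 82.0 CPM (-0.16 ± 0.039, adjusted p = 0.00189, both edgeR). The PDK3 call was lost in 6 of 16 alternative analyses.

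VEGFA, the main growth factor for new blood vessels, lies on chr6:43737946-43754223 (hg19, plus strand). Its level was 108, 106 and 108 CPM in Control and 108, 94.4 and 96.2 CPM in SMIP34. Treated replicates 2 and 3 were below all controls, whereas treated replicate 1 was level with them. The means were 107 ± 0.715 and 99.6 ± 7.50 CPM (SD, n = 3), with a log2 fold change of -0.11 ± 0.041, and without SMIP34 replicate 1 it was -0.17. The VEGFA co-receptor NRP1 fell from 33.5 to 27.6 CPM on average (log2 fold change -0.28 ± 0.0695, adjusted p = 0.00233, edgeR). Its groups overlapped, with 30.9 CPM in SMIP34 replicate 1 and 30.7 CPM in Control replicate 1. The receptors KDR and FLT1 had at most 0.155 CPM in any library and VEGFC was at 0.

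CA9 encodes carbonic anhydrase IX, a cell-surface enzyme of pH control that is nearly silent without HIF activity in many tissues, at chr9:35673915-35681154 (hg19, plus strand). It had counts of 1, 0 and 1 in Control and 0, 0 and 1 in SMIP34. Those counts lie under a reference level of 3 counts per library, or 0.137 to 0.155 CPM, which was not the filter for testing. The filter on low counts removed CA9 before the test. No fold change can be given, and a difference was not detectable at this depth. The related surface enzyme CA12 was expressed, with means of 60.1 CPM in Control and 64.6 CPM in SMIP34 (log2 fold change 0.106 ± 0.042, adjusted p = 0.0499, edgeR), a call lost in 12 of 16 alternatives.

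**Figure D1:**
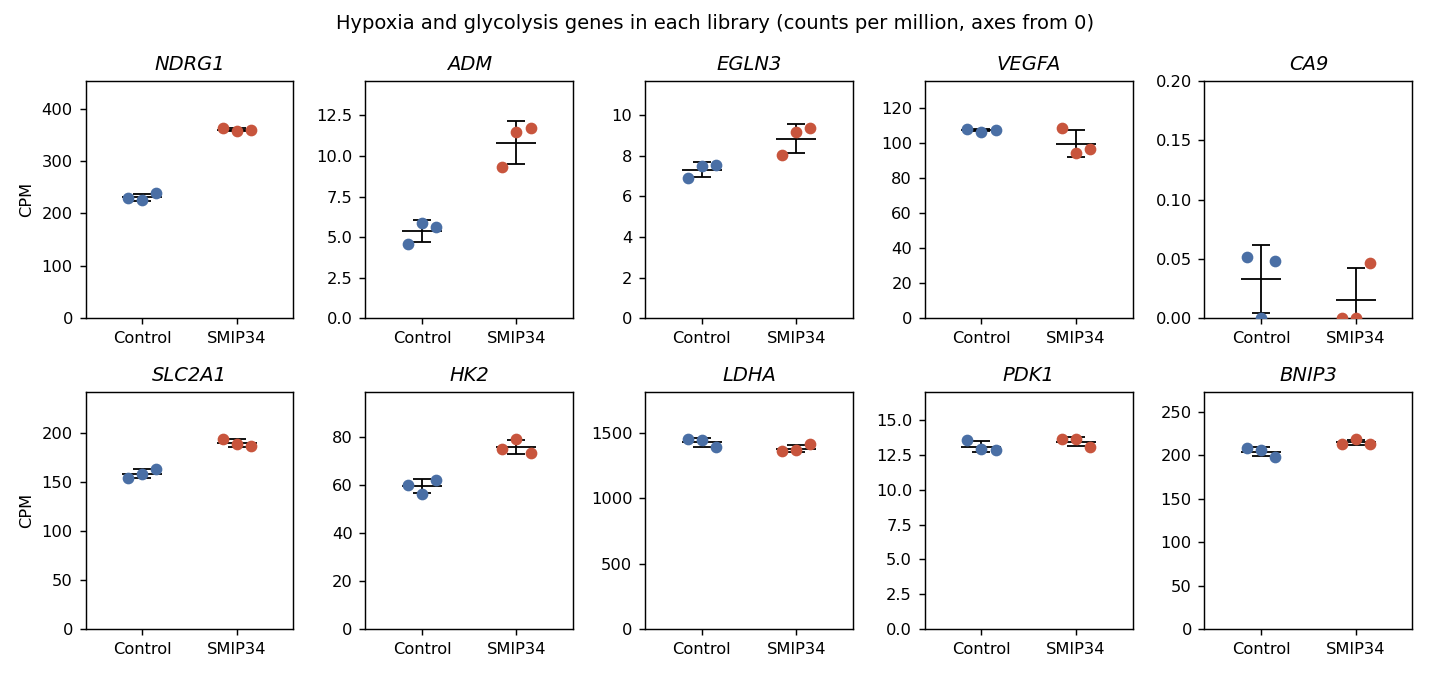
CPM (vertical axes, each from 0 and on its own scale) of the 10 genes in the 3 Control (blue) and 3 SMIP34 (red) libraries, with horizontal lines at the mean and bars of ± SD. NDRG1 lay at 226 to 239 CPM in Control and 358 to 362 in SMIP34, ADM, SLC2A1, HK2, EGLN3 and BNIP3 also had treated libraries above all controls, VEGFA, LDHA and PDK1 overlapped, and CA9 had at most 1 count.

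Of the 10 genes, 9 had enough counts to be tested, and CA9 did not. As a description only, since the group was selected on this same measured difference, the fit over all genes placed 5 of them (NDRG1, ADM, SLC2A1, HK2 and BNIP3) at an adjusted p under 0.05 and higher, where 17.4% of all tested genes were called higher. It placed VEGFA under that limit and lower, where 17.2% of all tested genes were called lower. With a log2 fold change over 0.5 required as well, NDRG1 and ADM remained among the higher genes, where 1.44% of all genes were called higher and 1.87% lower. The groups did not overlap, with SMIP34 higher, for 6 genes and, with SMIP34 lower, for 0, where the shares over all genes were 22.6% and 21.9%. The median log2 fold change of the 9 genes was 0.26, beside -0.0022 over all genes. Nothing is read from these counts. Of 22 tested paralogs of the 10 genes, 7 rose and 5 fell at an adjusted p under 0.05 (edgeR, beside the same 17.4% and 17.2%), and of 9 tested receptors, regulators and other partners 3 fell. Several paralogs, such as BNIP3L, EGLN1, HK1, HKDC1 and PDK2, are counted again in the lists below, so these tallies are not separate.

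The same contrast was examined in a wider list of 53 genes that are commonly described as HIF-induced, none of them among the 10 above. This list, too, was chosen with earlier results of these data known, so its counts are given as a description. Of the 53 genes, 45 were tested. At an adjusted p under 0.05 over all genes (edgeR's quasi-likelihood test), 20 rose, or 44.4%, beside 17.4% of all genes, and only STC2 fell, beside 17.2% of all genes. Of the 20, 4 passed the log2 fold limit of 0.5, and the median log2 fold change was 0.106. The groups did not overlap for 23 of the 45 genes with SMIP34 higher and 3 with SMIP34 lower, beside 22.6% and 21.9% of all genes. Genes of glycolysis are also switched on by HIF, but most were counted in a separate list below. There 8 of 35 tested genes rose and 14 fell at an adjusted p under 0.05 (edgeR), so the counts depend on this division.

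The largest rise in this list was that of ANGPTL4, a secreted inhibitor of lipoprotein lipase. Its level was 13.7, 14.5 and 13.9 CPM in Control and 25.5, 21.9 and 26.3 CPM in SMIP34, a log2 fold change of 0.81 ± 0.077 (adjusted p = 6.36e-09, edgeR). All treated libraries were well above the controls. C7orf68, the older symbol of the lipid droplet protein HILPDA, rose from 18.4 to 28.7 CPM (log2 fold change 0.65, adjusted p = 1.4e-07, edgeR). EFNA1, a membrane ligand of Eph receptors, rose from 29.3 to 45.8 CPM (log2 fold change 0.64, adjusted p = 1.19e-09, edgeR). These genes had folds close to that of NDRG1. ANKRD37, a small ankyrin repeat protein, was low at 3.02 CPM in Control and 4.52 CPM in SMIP34 (log2 fold change 0.575 ± 0.17, adjusted p = 0.00997, edgeR), and its call was lost without Control replicate 3 or SMIP34 replicate 1.

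BHLHE40, a transcriptional repressor of the circadian clock family, rose from 146 to 203 CPM (log2 fold change 0.47, adjusted p = 3.82e-12, edgeR). Smaller rises were seen in BNIP3L above, in GBE1, the glycogen branching enzyme (80.7 to 87.8 CPM, adjusted p = 0.00928), and in IGFBP3, a secreted binding protein of insulin-like growth factors (535 to 579 CPM, adjusted p = 0.000971, both edgeR). STC2, a secreted glycoprotein that HIF and the unfolded protein response both induce, was measured at 241, 240 and 249 CPM in Control and 187, 194 and 197 CPM in SMIP34. Its groups were far apart, and it fell by 0.34 on the log2 scale (adjusted p = 1.91e-09, edgeR). Enzymes of the list moved unevenly, and those named next were picked after their values were seen. PLOD1 had 219 CPM on average in both groups (adjusted p = 0.982, edgeR). KDM4B had 55.3 CPM in Control and 55.5 CPM in SMIP34 (adjusted p = 0.947, edgeR). P4HA1 and P4HA2, prolyl hydroxylases of collagen, rose from 97.3 to 119 CPM and from 63.6 to 82.4 CPM, with adjusted p of 4.82e-07 and 3.06e-08 (edgeR). KDM3A, a histone H3 lysine demethylase, rose from 67.9 to 86.3 CPM (adjusted p = 1.08e-07, edgeR). ERO1L, which oxidises protein disulphide isomerase in the endoplasmic reticulum, rose from 64.0 to 83.6 CPM (adjusted p = 7.64e-08, edgeR).

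**Figure D2:**
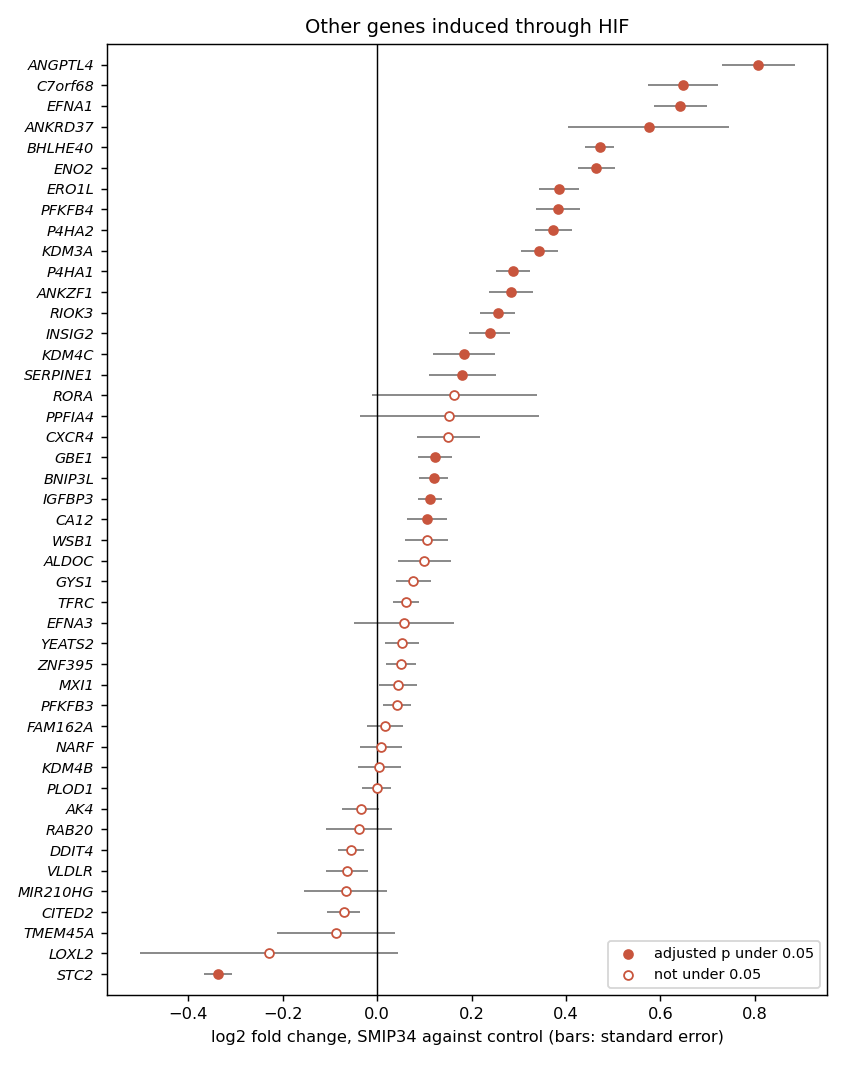
Log2 fold change of SMIP34 against Control (horizontal axis, bars are ± SE) for the 45 tested genes of the wider HIF-induced list, ordered by size. Filled points passed an adjusted p under 0.05: 20 lie to the right of 0, led by ANGPTL4 at 0.81, and STC2 lies to the left at -0.34.

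The genes that sense oxygen and control HIF were taken as a further list, also chosen with earlier results of these data known. Of 24 listed, 21 were tested, 6 rose (28.6%) and 3 fell (14.3%) at an adjusted p under 0.05 (edgeR), beside 17.4% and 17.2% of all genes, and none passed the log2 fold limit. The median log2 fold change was 0.045. HIF1A, the α subunit of HIF-1, was measured at 272, 267 and 274 CPM in Control and 281, 280 and 284 CPM in SMIP34. Its treated libraries were all above the controls by a small margin (log2 fold change 0.0555 ± 0.027, adjusted p = 0.118, edgeR). EPAS1, the α subunit of HIF-2, rose from 57.4 to 62.7 CPM (0.13 ± 0.043, adjusted p = 0.0226), a call lost in 4 of 16 alternatives. ARNT, the shared partner subunit, had means of 45.9 and 47.0 CPM (adjusted p = 0.622, edgeR). mRNA levels do not show how much HIF protein is present, since HIF is regulated mainly by degradation.

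Among the hydroxylases, EGLN1, the main oxygen sensor, rose from 66.8 to 79.2 CPM (log2 fold change 0.25 ± 0.042, adjusted p = 5.11e-05, edgeR). Its paralog EGLN2 had 88.8 and 93.4 CPM (adjusted p = 0.157), and HIF1AN, which hydroxylates an asparagine of HIF, had 88.3 and 90.7 CPM (adjusted p = 0.433). VHL had means of 147 and 152 CPM (adjusted p = 0.315, edgeR). TCEB2, the elongin B subunit of the VHL ligase, fell from 167 to 151 CPM (log2 fold change -0.145, adjusted p = 0.00196, edgeR). Among cofactors, the histone acetyltransferase EP300 rose from 69.8 to 90.4 CPM (0.375 ± 0.042, adjusted p = 9.84e-08) and its relative CREBBP from 47.5 to 53.4 CPM (0.17 ± 0.050, adjusted p = 0.0101, both edgeR). HSP90AA1, a chaperone that stabilises HIF-1α, rose by 0.33 ± 0.026 on the log2 scale (adjusted p = 1.01e-10), and GNB2L1 (RACK1), which competes with it, fell by 0.16 ± 0.025 (adjusted p = 1.75e-05, both edgeR). LIMD1, a scaffold of the VHL complex, rose by 0.117 (adjusted p = 0.0465) and SIAH1, a ligase that degrades prolyl hydroxylases, fell by 0.22 (adjusted p = 0.0137, both edgeR), although the groups overlapped for both. Of these calls, that of LIMD1 was lost in 8 of 16 alternatives, that of CREBBP in 3, that of SIAH1 without Control replicate 1 or SMIP34 replicate 3, and that of TCEB2 with gene length offsets.

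Other glycolysis genes moved little and in both directions. Their list was likewise chosen with earlier results of these data known. Of 40 further genes of glycolysis and pyruvate use, 35 were tested, 8 rose (22.9%) and 14 fell (40%) at an adjusted p under 0.05 (edgeR), beside 17.4% and 17.2% of all genes. None passed the log2 fold limit, and the median log2 fold change was -0.024. Their summed level was 17417 to 17862 CPM in Control and 16884 to 16938 CPM in SMIP34, so every treated library lay below every control. By step, glucose phosphorylation had HK1 higher and HKDC1 lower. From hexose phosphate to triose phosphate, 1 of 6 tested genes rose and 2 fell. From triose phosphate to pyruvate, 3 of 5 fell.

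Several abundant enzymes, picked after their values were seen, show the size of these changes. GAPDH was measured at 4072 CPM in Control and 3864 CPM in SMIP34 on average (log2 fold change -0.076 ± 0.025, adjusted p = 0.0183, edgeR). PKM2, the file's symbol for muscle-type pyruvate kinase, went from 2901 to 2774 CPM (-0.065 ± 0.024, adjusted p = 0.0356, edgeR). These are shifts of a few percent, and both calls were lost in 6 of 16 alternatives. Counts of both genes were not whole numbers in all 6 libraries, so part of their level is uncertain too. PGK1, which makes the first ATP of glycolysis, had 695 and 708 CPM (adjusted p = 0.471), and ENO1 had 2620 and 2526 CPM (adjusted p = 0.103, both edgeR). In contrast, the neuronal-type enolase ENO2, from the HIF list, rose from 84.6 to 117 CPM (log2 fold change 0.465, adjusted p = 5.78e-10, edgeR). The phosphofructokinase PFKL fell from 269 to 243 CPM (-0.15, adjusted p = 0.000149) and PFKP rose from 250 to 266 CPM (0.092, adjusted p = 0.0102, both edgeR), the latter call being lost without SMIP34 replicate 2. PFKFB4, a bifunctional regulator of phosphofructokinase from the HIF list, rose from 42.4 to 55.2 CPM (0.38, adjusted p = 3.56e-07, edgeR).

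At the entry of pyruvate into mitochondria, 4 of 7 tested genes fell and 1 rose at an adjusted p under 0.05 (edgeR), beside 17.2% and 17.4% of all genes. The gene that rose, named after its value was seen, was PDHX. It went from 45.3 to 50.5 CPM (log2 fold change 0.16 ± 0.046, adjusted p = 0.00952, edgeR). BRP44, the older symbol of the pyruvate carrier subunit MPC2, had the largest fall that passed the test, from 161 to 137 CPM (log2 fold change -0.23 ± 0.0325, adjusted p = 4.49e-06, edgeR). The pyruvate dehydrogenase subunits PDHA1 and PDHB fell from 123 to 108 CPM and from 91.3 to 80.3 CPM, with adjusted p of 0.000241 and 0.000365 (edgeR). DLD, the shared dihydrolipoamide dehydrogenase, fell from 147 to 131 CPM (adjusted p = 0.000219, edgeR). Of 5 tested regulators of the complex other than PDK1, 3 rose and 1 fell, beside the same shares. The activating phosphatase PDP2 rose from 24.7 to 28.6 CPM (adjusted p = 0.00699, edgeR), a call lost without Control replicate 2 and with gene length offsets. PDP1, a related phosphatase named after its value was seen, rose from 90.2 to 102 CPM (adjusted p = 0.000383, edgeR). C12orf5 (TIGAR), a fructose bisphosphatase that lowers glycolytic flux, and BPGM, which diverts a glycolytic intermediate, rose by 0.24 each on the log2 scale (adjusted p = 0.0193 and 0.0365, edgeR). Their calls were lost in 4 and 6 of 16 alternatives.

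**Figure D3:**
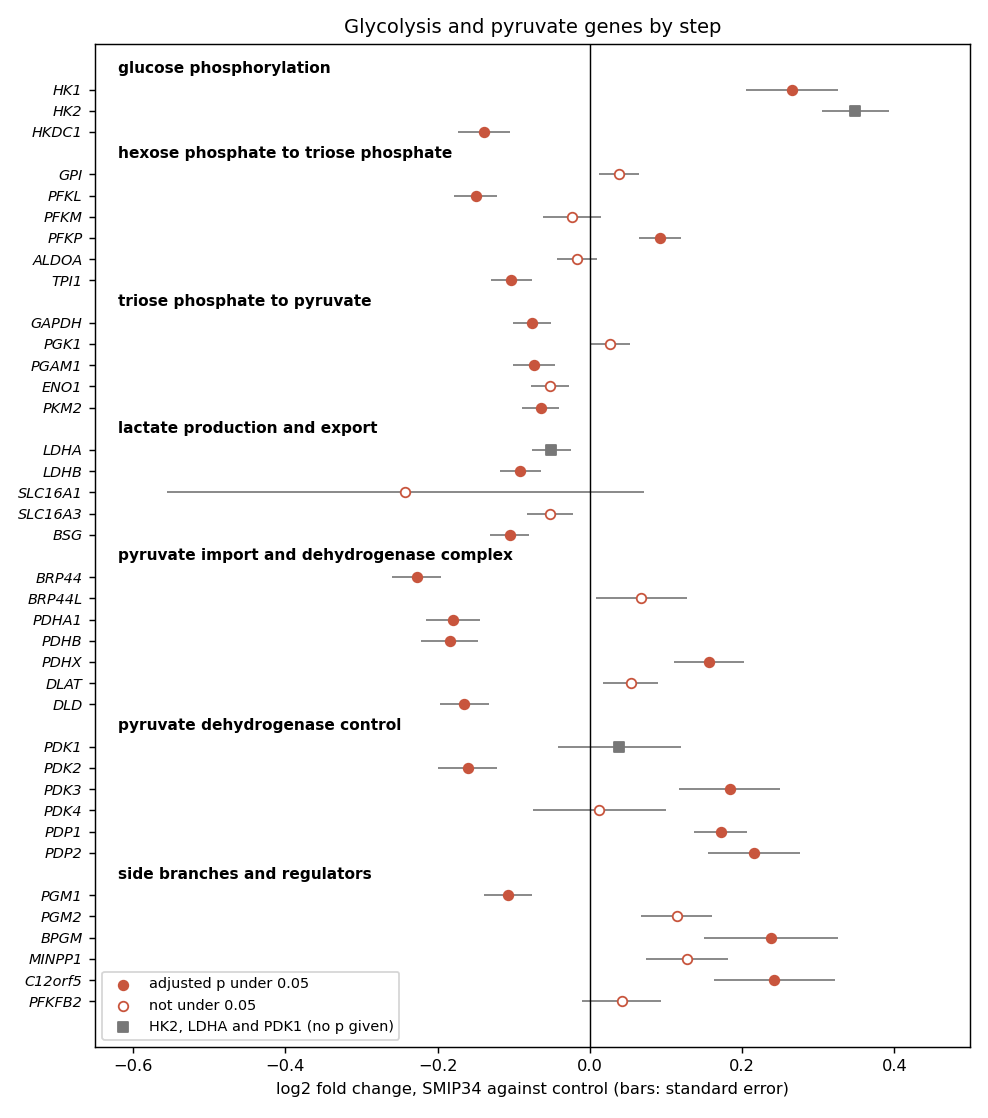
Log2 fold change of SMIP34 against Control (horizontal axis, bars are ± SE) for glycolysis and pyruvate genes grouped by step. Filled points passed an adjusted p under 0.05, open points did not, and grey squares are HK2, LDHA and PDK1, for which no p is given. HK2 and HK1 lie at 0.35 and 0.265, while the steps from triose phosphate to pyruvate lie near or just under 0.

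Fold changes in these data moved with gene length. Over 10 equal bins of all genes by exon length, the median log2 fold change ran from -0.10 at a median of 872 bases to 0.115 at 8625 bases. NDRG1 (3478 bases), ADM (1449 bases) and SLC2A1 (3670 bases) stood well above the medians at their lengths. HK2 is long, at 7093 bases, and its log2 fold change was 0.28 once a loess fit on length was used as an offset for each library. With these offsets NDRG1 was at 0.63, ADM at 1.08, SLC2A1 at 0.25 and BNIP3 at 0.14. In the wider HIF list 22 genes then rose and 2 fell, with a median of 0.116, and in the glycolysis list 7 rose and 11 fell, beside 2231 genes that rose and 1999 that fell among all 13408.

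**Figure D4:**
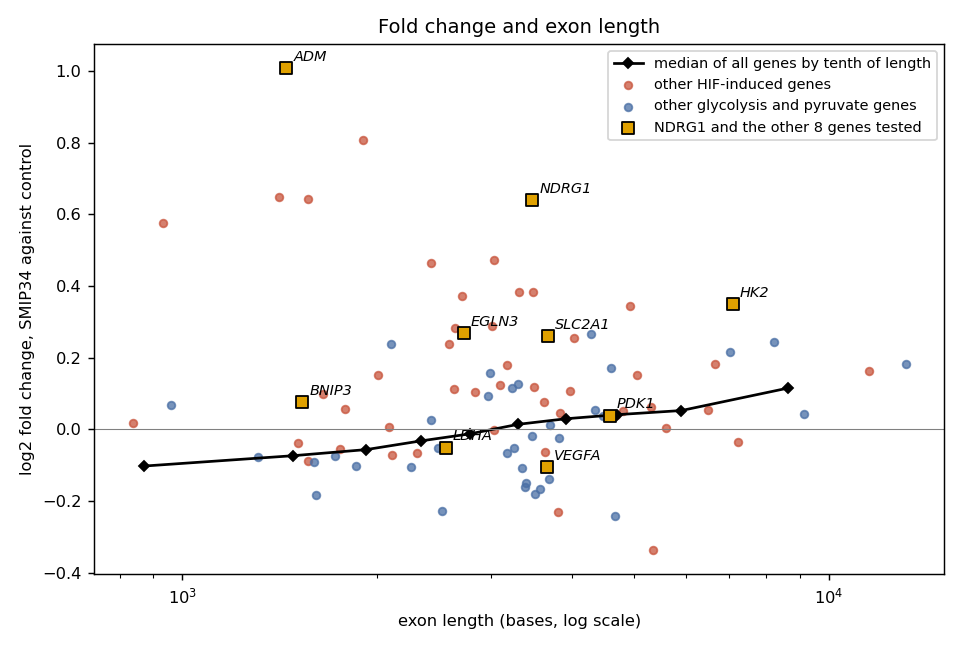
Log2 fold change (vertical axis) against exon length in bases (horizontal axis, log scale) for the 9 tested genes of the NDRG1 group (yellow squares), the wider HIF list (red) and the glycolysis list (blue), with the median of all genes in 10 bins of length (black line). The line climbs from -0.10 to 0.115, and ADM at 1.01 and NDRG1 at 0.64 lie far above it.

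Across the 6 libraries, the genes whose log2 CPM followed NDRG1 most closely among 12604 with a mean of at least 1 CPM were CBL, FOSB, ZC3H12A, OASL and HUWE1, each with a Pearson r of 0.999. This likeness rests mainly on the difference between the 2 groups, which all of these genes share with NDRG1, and on the same 6 libraries. The sizes differed widely, with log2 fold changes of 0.44 for CBL, a ubiquitin ligase of receptor signalling, 3.09 for the AP-1 subunit FOSB, 1.09 for ZC3H12A, 1.47 for OASL and 0.19 for HUWE1. Within groups, ADM and EGLN3 were each lowest in replicate 1 of each group. For ADM the deviation of that library from the group mean of log2 CPM was -0.21 in Control and -0.21 in SMIP34, and for EGLN3 it was -0.082 and -0.135. ADM and EGLN3 had the fewest counts of the 9 tested genes, with 89 to 127 and 134 to 163 in Control. Whether these deviations exceed counting error was not tested.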

How the data were processed

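The 6 libraries of RNA from HEC-1-A cells were grouped by their labels, 3 as Control and 3 as SMIP34, and all were used. The authors deposited estimated counts of reads on each gene, in part fractions, without normalization. Per the file headers, featureCounts 1.5.0-p1 counted reads of mapping quality of at least 2 on exons of the UCSC hg19 annotation, on the reverse strand, and split reads with several alignments or on several genes into fractions. The methods name tophat2 and HTSeq, whereas the submitters' processing notes name HISAT2, SAMtools and featureCounts. The labels name library kits of different makers without assigning them.

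The counts were rounded for the test, filterByExpr removed low genes, and TMM scaled the libraries. The groups were tested by edgeR 4.0.16 (R 4.3.3), whose newer quasi-likelihood method was used, and p-values were adjusted by Benjamini-Hochberg over 13408 genes. Calls used the study's limits, an adjusted p under 0.05 and, where stated, a log2 fold change over 0.5 in size. The study used DESeq2, which was an alternative here. Log2 CPM used a prior count of 2, and RPKM used the summed exon length in the files. Total counts limit the precision of low genes, and the reference level of 3 counts covers counting error only. The p-values measure the spread between these libraries, which may be technical.

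The 10 genes and all lists were chosen with earlier results of these data known. Apart from the 10 genes, the text names oxygen-sensing genes at an adjusted p under 0.05 and its central components, in the HIF and glycolysis lists the genes past both limits and the 5 largest and 5 smallest log2 fold changes among genes at an adjusted p under 0.05, paralogs and partners of the 10 genes, and the 5 genes most correlated with NDRG1. Further names were picked once values had been seen, and the text says so. Alternatives were DESeq2 1.42.0, limma 3.58.1 (voom), the legacy quasi-likelihood method, other scalings and filters, unrounded counts, the replicate number as a block, loess offsets (span 0.3) on gene length, and leaving out each library. The procedure was tested on simulated data. Motifs were searched in RefSeq promoter windows of 250 bases, and no coordinates were converted between builds.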

Additional observations from a re-analysis of the deposited data

How the results depend on the processing

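Each result was recomputed under 16 alternatives. The log2 fold changes of the 9 tested genes of the NDRG1 group kept their sign in all of them: NDRG1 lay between 0.62 and 0.67, ADM between 0.91 and 1.11, HK2 between 0.28 and 0.38 and SLC2A1 between 0.24 and 0.28. BNIP3 lay between 0.058 and 0.14, VEGFA between -0.17 and -0.068 and EGLN3 between 0.23 and 0.34. The genes were selected on this difference, so their calls only describe the fits: 5 were higher and 1 lower in the main fit. BNIP3 and VEGFA each passed the limit in 8 of the 16, and EGLN3, not called in the main fit, kept that status in 12. The higher count was 6 with the legacy quasi-likelihood method, with library size only and with gene length offsets. It was 4 with DESeq2, with no filter on low counts and with the replicate block. The lower count was 0 with DESeq2, with library size only and with no filter on low counts. Leaving out single libraries gave 4 to 5 higher and 0 to 1 lower, the latter being 0 without Control replicate 1 or 2 or SMIP34 replicate 2 or 3.

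HIF-induced genes lower were 1, and 2 with gene length offsets. Glycolysis and pyruvate genes higher were 8, and 5 with DESeq2. Without single libraries they were 5 to 7, with 5 without Control replicate 1 or SMIP34 replicate 2. The 14 lower were 9 to 14, with 9 without SMIP34 replicate 1. Without single libraries the log2 fold change of ARNT was -0.0099 (without SMIP34 replicate 3) to 0.071, and that of HIF1AN was -0.026 with gene length offsets. The cause of these changes was not tested. Genes with both limits passed numbered 444, and 323 with DESeq2. Neither is the study's own count, which was lower.

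Libraries with the same replicate number did not deviate together over genes (correlations of -0.028, 0.033 and -0.011). This does not show whether they shared a culture or a day, which the labels do not say. With the replicate block, 453 genes were called, 4 of the 10 genes were higher (BNIP3 was not called) and 1 lower, 19 HIF-induced genes were higher, and 11 glycolysis genes were lower.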

Other observations

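These genes were picked after their values were seen. Genes of the HIF-induced list at or near 0 in every library included LOX and EPO, which had no count, and PLOD2, a collagen lysyl hydroxylase, with at most 0.103 CPM. All stand beside CA9 among hypoxia markers that were not measurable here in either group. TXNIP, a glucose-responsive inhibitor of glucose uptake, had at most 1 count in any library.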
